A study of Mus musculus with 4 samples.

Results

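The mouse mitochondrial genome is a small circle of DNA, and all 37 of its genes carry names that start with mt-. Members were taken as the rows with such names, 37 of the 55401 gene models in the tables: 13 protein genes, 2 ribosomal RNAs (rRNAs) and 22 transfer RNAs (tRNAs). They were measured by RNA-seq in group 2 innate lymphoid cells (ILC2s), tissue-resident lymphocytes that release type 2 cytokines. Lung ILC2s of C57BL/6 mice were kept for 6 h with IL-33, an alarm cytokine that activates them, or with IL-33 plus angiotensin II (Ang II), a peptide hormone that raises blood pressure. Each treatment has 2 libraries, made from 500 cells each, and both groups received IL-33. The labels give no genotype beyond the strain, no age, no dose, no untreated group, and no word on whether libraries came from separate mice or cultures.

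Mitochondrial DNA is copied into long RNAs that run across many genes, and the tRNAs that sit between the protein and rRNA genes mark the places where these RNAs are cut. The 13 proteins are core subunits of 4 of the respiratory chain complexes. Between them, these complexes pass on electrons, move protons across the inner membrane and make ATP. The rRNAs and tRNAs serve the mitochondrion's own ribosome. All other subunits, and the enzymes that copy, cut and translate mitochondrial RNA, come from nuclear genes. Pieces of mitochondrial DNA have also been copied into the nuclear chromosomes over time, where they lie as pseudogenes.

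Values are FPKM, fragments scaled to the length of the gene and to the fragments mapped in the library, so levels of different genes can be compared per length. The IL-33 pair differed by 1.03 to 1.15 times counting noise for the median gene of low and middle abundance, and by 2.08 to 2.32 times when squared differences were averaged over those genes. For the Ang II pair these ratios were 13.15 to 14.72 and 12.3 to 13.77. Counting noise was itself estimated from the IL-33 pair, so the ratios of that pair are no independent measure of its closeness to noise. Neither ratio of the IL-33 pair is within noise, and the rule planned for the test would then keep the libraries as 2 replicates. Because the pair lay so much closer than the Ang II pair, its mean was nevertheless entered as 1 sample, n = 1 against n = 2 on log2(FPKM + 1). Adjusted p-values are from that fit unless said otherwise, and the calls of the fit with 2 against 2 stand beside them. The lone IL-33 sample was assumed to vary like the Ang II pair. An exact permutation test of 1 sample against 2 cannot reach 0.05. Values of both IL-33 libraries are given throughout, because several members differed between them by more than most other genes of at least 100 FPKM.

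One stretch of the mitochondrial genome, chrM:6390-11042 in mm10, is matched by 7 annotated pseudogenes that lie side by side on chromosome 1, on the minus strand from 24611535 to 24616197. Members were matched to them through GENCODE M21 transcripts (GRCm38, the assembly of mm10). Of the 7 copies, 5 were identical to their member over the aligned bases: Gm28661 to mt-Co2, Gm10925 to mt-Atp6, Gm28437 to mt-Co3, Gm10222 to mt-Nd4l and Gm28439 to 876 bases of mt-Nd4. Gm28438 differed from mt-Nd3 by T3C and Gm29216 from mt-Co1 by A1066T, with positions counted from 1 at the member's first base and the member's base given first. Reads from an identical stretch cannot be assigned by sequence, so the authors' counting could have split them between a member and its copy, and the values of these members are uncertain. The first 60 aligned bases of mt-Co3 (chrM:8607-8666, plus strand) and Gm28437 (chr1:24613912-24613971, minus strand) are shown because no letter tells them apart. Below them the bases at which mt-Nd3 (chrM:9459-9481) and mt-Co1 (chrM:6390-6413) differ from Gm28438 (chr1:24613097-24613119) and Gm29216 (chr1:24616165-24616188) stand in capitals.
mt-Co3: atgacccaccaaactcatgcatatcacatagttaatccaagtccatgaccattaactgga
Gm28437: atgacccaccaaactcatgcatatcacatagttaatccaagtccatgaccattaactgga
mt-Nd3: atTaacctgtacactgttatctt
Gm28438: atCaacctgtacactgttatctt
mt-Co1: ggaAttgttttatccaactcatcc
Gm29216: ggaTttgttttatccaactcatcc

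The 7 copies together summed to 1079.9 and 3588 FPKM in IL-33 replicates 1 and 2, and to 5046 and 129 FPKM in Ang II replicates 1 and 2. The copies were thus lowest in Ang II replicate 2 and highest in Ang II replicate 1, with the IL-33 libraries in between and apart. Another 4 pseudogenes, of 95.178% to 97.605% identity, lie on chromosomes 2 and 13 and summed to between 13.7 and 16.3 FPKM in every library. Of these, Gm13339 (a copy of part of mt-Nd2), Gm13340 (mt-Co1) and Gm13341 (mt-Co2) stood between 1.98 and 10.47 FPKM, and a copy of part of mt-Nd5 at no more than 0.1 FPKM.

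Summed over all 37 members, FPKM came to 23009 and 20503 in the IL-33 libraries and to 19154 and 24287 in the Ang II libraries. The groups overlapped, and the lowest and the highest sum were both in Ang II libraries. The 11 nuclear copies were then added, each at the FPKM of its own length. The sums were 24103 and 24105 FPKM with IL-33 and 24216 and 24429.7 FPKM with Ang II. The 4 libraries thus lay closer together, and both Ang II values were above both IL-33 values. That separation depends on the lengths used. With the copies put on the length of their member, as below, the groups overlapped and the IL-33 libraries no longer matched. As a share of the FPKM of all gene models, members took 5.34% and 4.76% with IL-33 and 4.495% and 6.15% with Ang II. With the copies, again at the FPKM of their own lengths, these shares were 5.59% in both IL-33 libraries and 5.68% and 6.19% with Ang II. That order held only with haemoglobin genes in the sum, which took 5.83% and 5.78% of it with IL-33 and 0.897% and 0.401% with Ang II. Without them the shares with copies were 5.94% in both IL-33 libraries and 5.73% and 6.21% with Ang II, and the groups overlapped. The highest share, in Ang II replicate 2, stood beside the lowest FPKM sum of all gene models, 394808 against 426140 to 431014 in the other libraries.

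**Figure D1:**
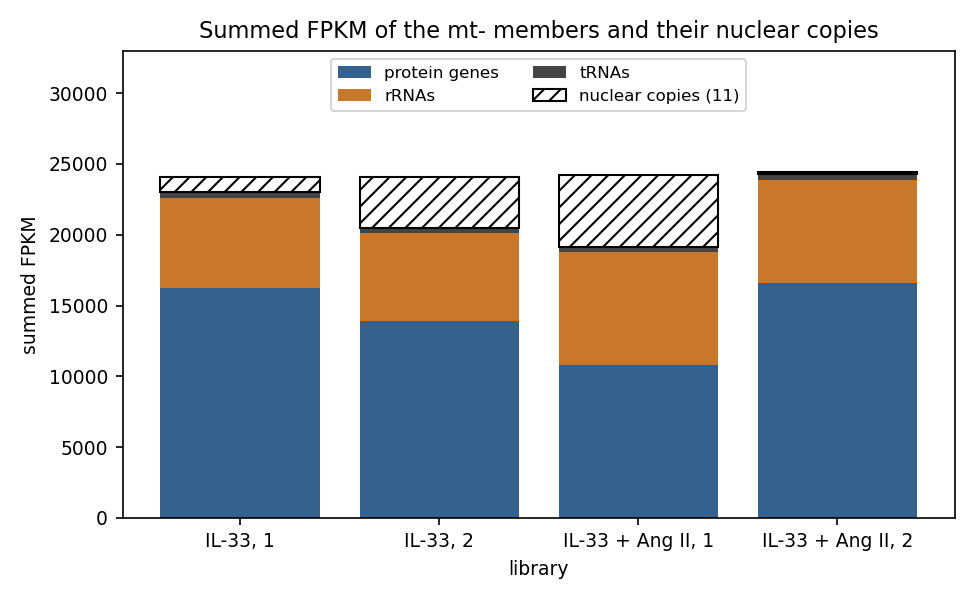
Summed FPKM of the 13 protein genes, 2 rRNAs and 22 tRNAs in each library (x axis), with the 11 nuclear copies hatched on top. Each copy is at the FPKM of its own length, not that of its member. The filled parts differ between libraries, from 19154 to 24287 FPKM, while the full bars end between 24103 and 24429.7 FPKM.

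For the 7 members with near-identical copies, the copy's fragments were also put on the length of the member and added to it. The copy then made up 0.52% to 1.164% of the sum in Ang II replicate 2 and 15.4% to 50.9% in Ang II replicate 1. In the IL-33 libraries the copy's part was 0.649% to 24.6% in replicate 1 and 2.999% to 46.4% in replicate 2. As deposited, the 7 members differed between the IL-33 libraries by 0.084 to 0.587 on the log2 scale, with a median of 0.48. As sums they differed by 0.007 to 0.202, with a median of 0.033, and the gap was smaller for all 7. For 445 other genes that reached 100 FPKM in all 4 libraries, the median gap of the IL-33 libraries was 0.030 and the 95th percentile 0.184. The 5 protein genes and 2 rRNAs outside the copied stretch differed between the IL-33 libraries by at most 0.081. Between the Ang II libraries the gap was smaller as a sum for 5 of the 7 members, and larger for mt-Nd4l and mt-Nd4.

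**Figure D2:**
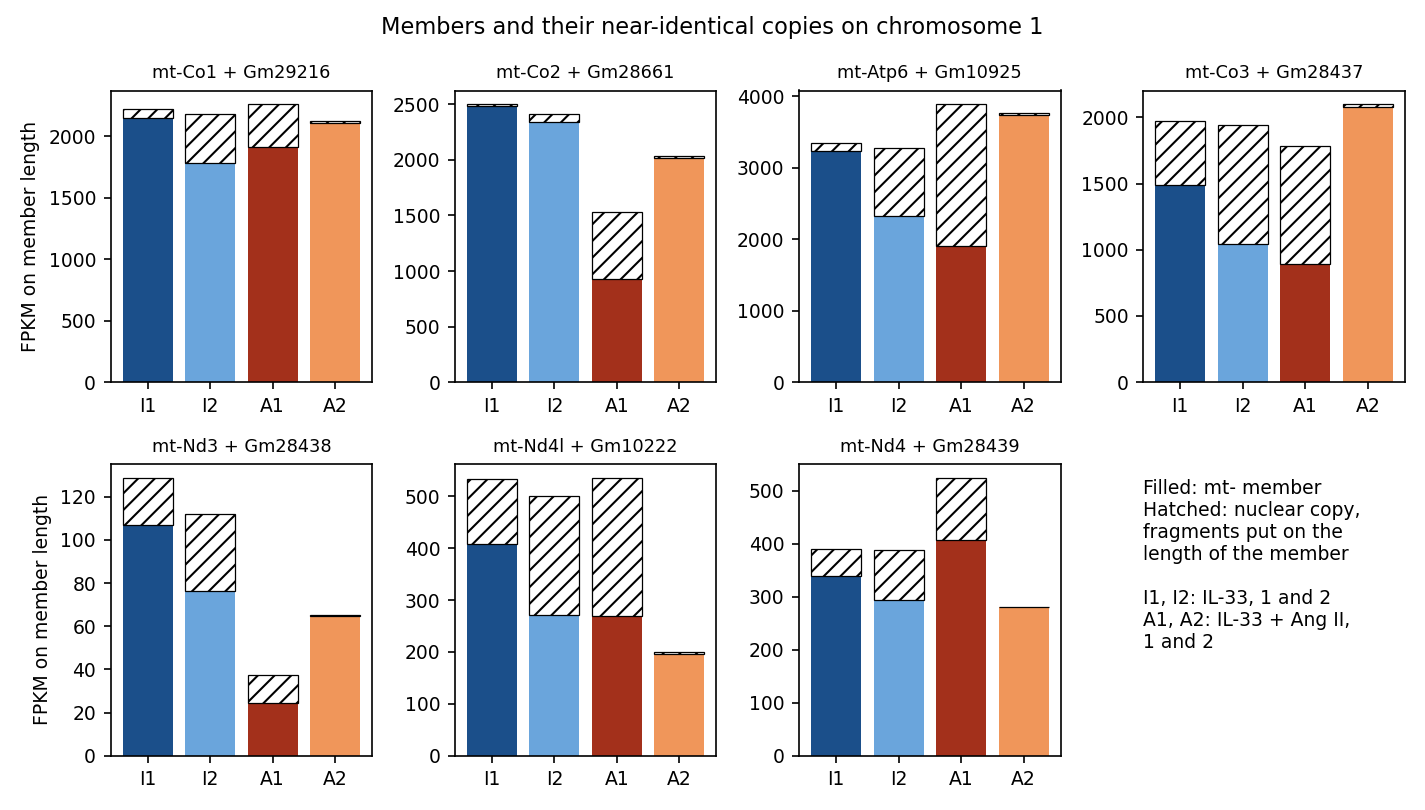
FPKM of 7 members (filled) with the near-identical chromosome 1 copy of each (hatched, fragments put on the length of the member) in the 4 libraries, 1 panel a member, all axes from 0. The hatched part is almost absent in Ang II replicate 2 and reaches 50.9% of the mt-Atp6 bar in Ang II replicate 1.

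Of the 37 members, 28 reached a mean of 1 FPKM over the 3 samples and entered the test: all 13 protein genes, both rRNAs and 13 tRNAs. At an adjusted p of 0.05 none was called (two-sided limma test, Benjamini-Hochberg adjustment over 9215 genes), the smallest adjusted p among them being 0.174. Of all 9215 genes, 0.0% passed in either direction, so the absence of calls in this fit says nothing particular about the members. At an unadjusted p under 0.05, 2 members were higher and 3 lower with Ang II, all of them tRNAs, against 2.79% and 10.8% of all genes. Both Ang II values lay above both IL-33 values for 5 of the 28 members and below them for 11, against 24.4% and 33.5% of all genes tested. With the IL-33 libraries entered as 2 replicates, limma called 2 members higher and 6 lower, against 5.34% and 13.0% of the 9095 genes tested that way. The 2 higher were mt-Td (adjusted p = 0.0169) and mt-Tp (0.0277). The 6 lower were mt-Tl1 (0.00919), mt-Tg (0.00975), mt-Tr (0.0141), mt-Tf (0.0251), mt-Nd2 (0.0332) and mt-Tm (0.0336). These calls hold only where the IL-33 libraries are separate replicates and same-numbered libraries are not paired, which the labels do not settle.

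The 2 mitochondrial rRNAs form the core of the mitochondrial ribosome, mt-Rnr1 (chrM:70-1024) that of the small subunit and mt-Rnr2 (chrM:1094-2675) that of the large one. mt-Rnr1 had 2731 and 2643 FPKM in the IL-33 pair, against 3561 and 3148 FPKM in the Ang II pair. mt-Rnr2 had 3655 and 3532 FPKM in the IL-33 pair, against 4443 and 4157 FPKM in the Ang II pair. Both rRNAs were higher in both Ang II libraries, and neither has a near-identical copy among the annotated transcripts. The log2 fold change was 0.32 (SE 0.15) for mt-Rnr1 and 0.26 (SE 0.11) for mt-Rnr2, with adjusted p of 0.711 and 0.668 (limma). The ratio of mt-Rnr2 to mt-Rnr1 was 1.34 in both IL-33 libraries and 1.25 and 1.32 with Ang II. The summed rRNAs made 0.394 and 0.443 times the summed FPKM of the protein genes with IL-33, and 0.742 and 0.440 times with Ang II. The 7 copies were also counted among the protein genes, each at the FPKM of its own length. The ratios were then 0.369 and 0.352 with IL-33 and 0.505 and 0.437 with Ang II, and the groups no longer overlapped.

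The 13 protein genes, as a group, had a median log2 fold change of -0.08, against -0.004 over all genes tested, and the sign turned with median-of-ratios scaling (0.016). Set singly against the mean log2 value of the IL-33 pair, the median was -0.305 for Ang II replicate 1 and 0.024 for replicate 2. Of the 13, 1 was higher and 5 were lower in both Ang II libraries, and the values of the other 7 overlapped. Over all genes tested, 24.4% were higher and 33.5% lower by this measure. Per length, mt-Atp6, mt-Atp8 and mt-Co2 were the most abundant in both IL-33 libraries, and mt-Nd3 was the least abundant in all 4. The Ang II libraries differed from each other by a median of 0.542 in log2 over the 13, against 0.377 over the 445 other genes of at least 100 FPKM.

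**Figure D3:**
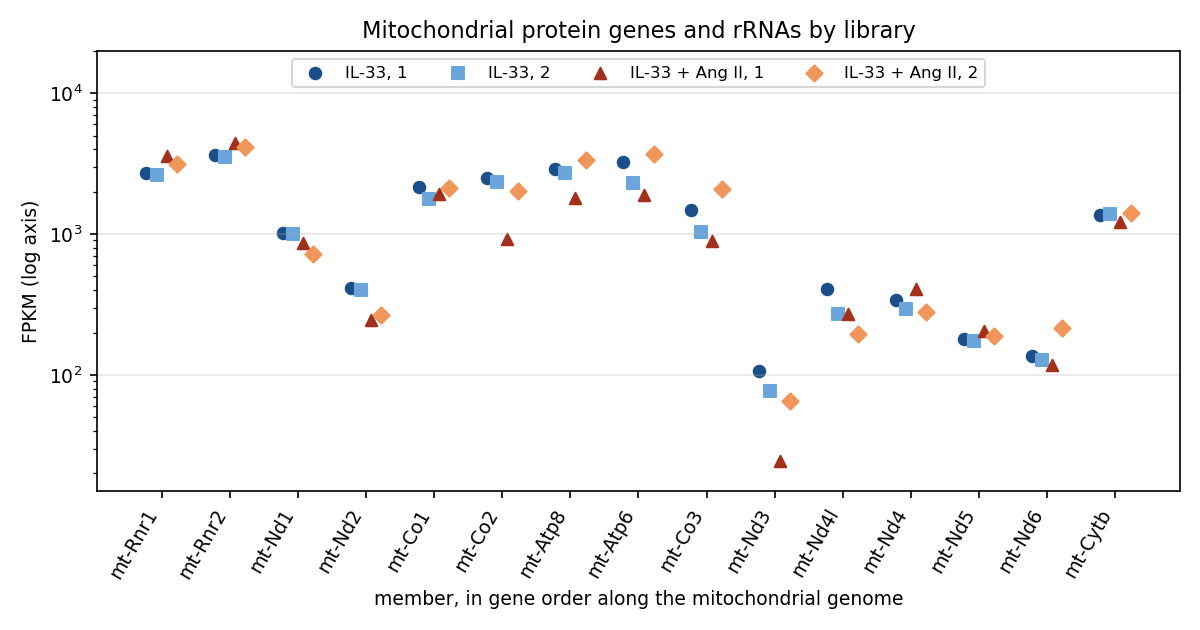
FPKM (log axis) of the 13 protein genes and 2 rRNAs in gene order, 1 point a library. Both rRNAs and mt-Nd5 lie higher in both Ang II libraries, and mt-Nd1, mt-Nd2, mt-Co2, mt-Nd3 and mt-Nd4l lower.

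Complex I takes electrons from NADH, and 7 of its membrane subunits are members. mt-Nd1 (chrM:2751-3707), at the junction with the arm that binds NADH, had 1015 and 1003 FPKM in the IL-33 pair, against 857 and 720.1 FPKM in the Ang II pair. mt-Nd2 (chrM:3914-4951), a proton-pumping subunit, had 412 and 404 FPKM in the IL-33 pair, against 244 and 266 FPKM in the Ang II pair. Both were lower in both Ang II libraries, with log2 fold changes of -0.36 (SE 0.20) for mt-Nd1 and -0.675 (SE 0.182) for mt-Nd2. The adjusted p was 0.775 for mt-Nd1 and 0.457 for mt-Nd2 (limma), and 0.159 and 0.0332 with 2 against 2. mt-Nd2 was the protein gene with the smallest adjusted p, and no near-identical copy of it or of mt-Nd1 was found.

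mt-Nd3 (chrM:9459-9806), a small subunit whose loop moves between the active and resting states of complex I, had 107 and 76.3 FPKM in the IL-33 pair, against 24.5 and 64.8 FPKM in the Ang II pair. With its copy Gm28438, listed at 21.9, 35.8, 13.2 and 0.36 FPKM in the same order, the sums were 129 and 112 FPKM with IL-33 and 37.6 and 65.15 FPKM with Ang II. It was lower in both Ang II libraries either way (log2 fold change of the deposited values -1.18, SE 0.92, limma adjusted p = 0.775). mt-Nd4l (chrM:9877-10173), which shares 7 bases with the start of mt-Nd4, had 409 and 272 FPKM in the IL-33 pair, against 269.6 and 197 FPKM in the Ang II pair. As deposited it was lower in both Ang II libraries, by a narrow margin over IL-33 replicate 2 (log2 fold change -0.56, SE 0.34, limma adjusted p = 0.775). With Gm10222, listed at 125.9 and 230.45 FPKM and at 269 and 2.34 FPKM, the sums were 533 and 500.1 FPKM against 536 and 199 FPKM, and the groups overlapped.

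mt-Nd4 (chrM:10167-11544), another proton-pumping subunit, had 339.7 and 294 FPKM in the IL-33 pair, against 407 and 279.7 FPKM in the Ang II pair. Its copy Gm28439 covers part of it and was listed at 77.8 and 147 FPKM and at 183 and 2.3 FPKM. As sums on the length of mt-Nd4 the values were 389 and 387 FPKM against 524 and 281 FPKM, so the groups overlapped with and without the copy. mt-Nd5 (chrM:11742-13565), the third of the pumping subunits, had 181 and 175 FPKM in the IL-33 pair, against 205 and 189 FPKM in the Ang II pair. It was the only protein gene whose deposited values were higher in both Ang II libraries (log2 fold change 0.14, SE 0.20, limma adjusted p = 0.781). mt-Nd6 (chrM:13552-14070) is the one protein gene on the minus strand and overlaps the end of mt-Nd5 by 14 bases. It had 136 and 129 FPKM in the IL-33 pair, against 117 and 216 FPKM in the Ang II pair, so that the 2 Ang II libraries lay on either side of the IL-33 pair. Whether the libraries kept the strand is not given in the sources used here, so fragments in the overlap cannot be told apart.

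Complex III passes electrons to cytochrome c, and its one member, mt-Cytb (chrM:14145-15288), encodes cytochrome b. It had 1373 and 1384 FPKM in the IL-33 pair, against 1212 and 1401 FPKM in the Ang II pair. The groups overlapped, and mt-Cytb differed between the IL-33 libraries by 0.011 in log2, the least of the 13.

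Complex IV hands electrons to oxygen, and its catalytic core is built from mt-Co1, mt-Co2 and mt-Co3. mt-Co1 (chrM:5328-6872), which holds the site where oxygen is bound, had 2147 and 1784 FPKM in the IL-33 pair, against 1909 and 2106 FPKM in the Ang II pair. With Gm29216, a copy of its last 483 bases listed at 239 and 1242 FPKM and at 1093 and 48.6 FPKM, the sums were 2223 and 2179 FPKM against 2257 and 2121 FPKM. The groups overlapped in both counts. mt-Co2 (chrM:7013-7696), which takes electrons from cytochrome c, had 2483 and 2341 FPKM in the IL-33 pair, against 926 and 2018 FPKM in the Ang II pair. Its copy Gm28661 was listed at 16.3 and 72.7 FPKM and at 608 and 20 FPKM, which gives sums of 2499 and 2414 FPKM against 1531 and 2038 FPKM. mt-Co2 was lower in both Ang II libraries either way, with Ang II replicate 1 the lowest. Its log2 fold change was -0.82 (SE 0.73, limma adjusted p = 0.775) as deposited and -0.475 with the copies counted. mt-Co3 (chrM:8607-9390), the third core subunit, had 1486 and 1042 FPKM in the IL-33 pair, against 896 and 2080.1 FPKM in the Ang II pair. As deposited, the Ang II libraries lay on either side of the IL-33 pair. With Gm28437, listed at 485 and 902 FPKM and at 892 and 17.45 FPKM, the sums were 1970.3 and 1943 FPKM against 1787 and 2098 FPKM, and the groups overlapped.

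Complex V is the ATP synthase, and mt-Atp6 encodes the subunit through which protons flow and mt-Atp8 a small subunit beside it. Their reading frames overlap by 43 bases, which are shown in capitals because fragments there belong to both gene models (chrM:7907-7989, plus strand).
mt-Atp8 and mt-Atp6: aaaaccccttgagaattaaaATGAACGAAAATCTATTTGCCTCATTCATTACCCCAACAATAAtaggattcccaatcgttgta
mt-Atp8 (chrM:7766-7969) had 2902 and 2711 FPKM in the IL-33 pair, against 1817 and 3330.2 FPKM in the Ang II pair. No annotated copy of it was found, although it lies inside the copied stretch. mt-Atp6 (chrM:7927-8607) had 3233 and 2316 FPKM in the IL-33 pair, against 1905 and 3729 FPKM in the Ang II pair. In both genes Ang II replicate 1 was the lowest library and Ang II replicate 2 the highest. Gm10925, the copy of mt-Atp6, was listed at 114 and 958 FPKM in the IL-33 pair, against 1987 and 38.3 FPKM in the Ang II pair, so that in Ang II replicate 1 it exceeded its member. The sums were 3347 and 3270.2 FPKM with IL-33 and 3883 and 3767 FPKM with Ang II. As a sum, mt-Atp6 was higher in both Ang II libraries, while the deposited values of the member overlapped.

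Relative to each other, the protein genes can be compared within a library without regard to how it was scaled. The complex I genes took 16.02% and 16.9% of the summed FPKM of the 13 with IL-33 and 19.7% and 11.6% with Ang II. The complex IV genes took 37.7% and 37.1% with IL-33 and 34.6% and 37.4% with Ang II. The complex V genes took 37.8% and 36.1% with IL-33 and 34.5% and 42.5% with Ang II. mt-Cytb, alone for complex III, took 8.47% and 9.93% with IL-33 and 11.23% and 8.44% with Ang II. As deposited, the groups overlapped for each of the 4 complexes. These shares leave out the nuclear copies. With the sums of member and copy in place of the deposited values, the groups no longer overlapped for complexes IV and V.

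The 22 tRNA genes are 59 to 75 bases long, so their FPKM rest on short targets. A rule of at least 100 aligned bases could not find nuclear copies of them, and 5 of them (mt-Ts1, mt-Td, mt-Tk, mt-Tg and mt-Tr) lie inside the stretch copied to chromosome 1. Together the tRNAs summed to 401 and 396 FPKM with IL-33 and to 359 and 385 FPKM with Ang II. Of the 22, 15 reached 1 FPKM in a library, and 3 (mt-Tc, mt-Ty and mt-Ts2) were listed at 0 in all 4. Another 4 (mt-Ta, mt-Tn, mt-Th and mt-Tl2) stayed under 1 FPKM. The 8 whose groups did not overlap and which entered the test are shown. The anticodon, the 3 bases that read the codon, was sought in the middle part of each sequence, directly after a t or c. It stands in capitals where it matched there at a single place. For mt-Tp it matched at 2 places and none is marked. They are mt-Tf (chrM:1-68), mt-Tl1 (chrM:2676-2750), mt-Tq (chrM:3772-3842, minus strand), mt-Tm (chrM:3845-3913), mt-Td (chrM:6942-7011), mt-Tg (chrM:9391-9458), mt-Tr (chrM:9808-9875) and mt-Tp (chrM:15356-15422, minus strand).
mt-Tf: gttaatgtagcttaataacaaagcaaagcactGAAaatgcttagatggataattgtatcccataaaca
mt-Tl1: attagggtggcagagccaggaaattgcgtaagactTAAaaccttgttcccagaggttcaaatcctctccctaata
mt-Tq: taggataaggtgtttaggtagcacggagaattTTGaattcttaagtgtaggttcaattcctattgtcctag
mt-Tm: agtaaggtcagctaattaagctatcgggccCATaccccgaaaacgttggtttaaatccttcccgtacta
mt-Td: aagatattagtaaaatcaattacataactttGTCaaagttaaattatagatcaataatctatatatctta
mt-Tg: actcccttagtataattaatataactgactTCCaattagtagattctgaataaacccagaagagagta
mt-Tr: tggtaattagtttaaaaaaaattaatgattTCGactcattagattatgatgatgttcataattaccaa
mt-Tp: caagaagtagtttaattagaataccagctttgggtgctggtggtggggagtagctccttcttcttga

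Of the 13 tRNAs tested, 2 lay higher in both Ang II libraries, 6 lower, and 5 overlapped. Over all genes tested, 24.4% lay higher and 33.5% lower. The 8 shown were picked because their groups did not overlap. mt-Td, which carries aspartate and lies between mt-Co1 and mt-Co2, had 4.23 and 2.17 FPKM in the IL-33 pair, against 62.5 and 55.0 FPKM in the Ang II pair. Its log2 fold change of 3.83 (SE 0.39) gave an adjusted p of 0.174 (limma), the smallest of any member. It equals the smallest of all 9215 genes, but other genes, Cd4 and Tfb2m among them, share that value. The tie thus gives mt-Td no top rank. mt-Tp, which carries proline and lies at the end of the gene-bearing part on the minus strand, had 52.7 and 52.2 FPKM in the IL-33 pair, against 128 and 119 FPKM in the Ang II pair (log2 fold change 1.22, SE 0.24, limma adjusted p = 0.344). For both tRNAs the gap between groups was wider than the spread within either.

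Among the 6 lower tRNAs, mt-Tl1, which carries leucine and lies between mt-Rnr2 and mt-Nd1, had 46.1 and 50.7 FPKM in the IL-33 pair, against 3.56 and 2.58 FPKM in the Ang II pair (log2 fold change -3.61, SE 0.61, limma adjusted p = 0.290). mt-Tr, the arginine tRNA between mt-Nd3 and mt-Nd4l, had 24.9 and 27.7 FPKM with IL-33, then 0 and 0.73 FPKM with Ang II added (log2 fold change -4.375, SE 0.77, limma adjusted p = 0.307). mt-Tg, the glycine tRNA between mt-Co3 and mt-Nd3, stood at 9.99 and 11.02 FPKM, then 0.27 and 0.54 FPKM with Ang II added (log2 fold change -3.04, SE 0.485, limma adjusted p = 0.272). These 3 were under 4 FPKM in both Ang II libraries. mt-Tf, the phenylalanine tRNA in front of mt-Rnr1, stood at 49.0 and 42.5 FPKM, then 12.4 and 13.1 FPKM with Ang II added (log2 fold change -1.77, SE 0.40, limma adjusted p = 0.393). The methionine tRNA mt-Tm stood at 71.9 and 68.2 FPKM, then 24.6 and 19.6 FPKM with Ang II added (log2 fold change -1.63, SE 0.39, limma adjusted p = 0.406). Its neighbour on the other strand, the glutamine tRNA mt-Tq, stood at 82.2 and 88.5 FPKM, then 47.85 and 21.4 FPKM with Ang II added (log2 fold change -1.39, SE 0.78, limma adjusted p = 0.775). mt-Tm and mt-Tq lie between mt-Nd1 and mt-Nd2, as does mt-Ti, whose values overlapped between groups.

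The other 7 tRNAs that reached 1 FPKM overlapped between groups, and in 4 of them the 2 Ang II libraries lay far apart. mt-Ti, the isoleucine tRNA, had 2.17 and 4.47 FPKM with IL-33, 45.05 FPKM in Ang II replicate 1 and 0.01 FPKM in replicate 2. mt-Tv, the valine tRNA between the rRNAs, went the other way, with 0.12 and 0.19 FPKM with IL-33, 0.02 FPKM in Ang II replicate 1 and 24.6 FPKM in replicate 2. Like mt-Tv, the lysine tRNA mt-Tk was higher in replicate 2, at 13.7 and 7.51 FPKM against 0.23 and 26.2 FPKM. The glutamate tRNA mt-Te stood at 25.0 and 20.96 FPKM against 11.25 and 86.9 FPKM. mt-Tt, the threonine tRNA, stood, across the 4 libraries, at 18.25 and 15.96 FPKM against 21.7 and 13.8 FPKM. mt-Tw, the tryptophan tRNA, stood between 0 and 1.17 FPKM, and mt-Ts1, a serine tRNA, between 0 and 2.83 FPKM.

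**Figure D4:**
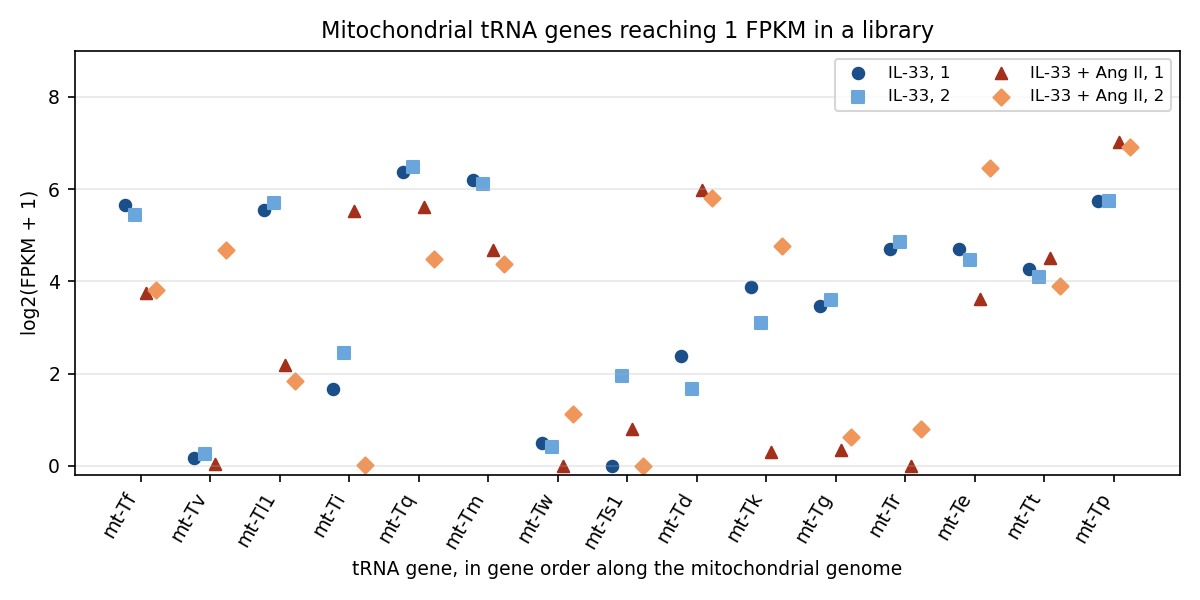
log2(FPKM + 1) of the 15 tRNA genes that reached 1 FPKM in a library, in gene order, 1 point a library. mt-Td and mt-Tp lie higher and mt-Tf, mt-Tl1, mt-Tq, mt-Tm, mt-Tg and mt-Tr lower in both Ang II libraries, while mt-Tv, mt-Ti, mt-Tk and mt-Te spread widely within the Ang II pair.

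Nuclear genes that copy, cut, stabilise and translate mitochondrial RNA were looked up as 6 lists of 208 genes, of which 163 entered the test. None passed the adjusted threshold (limma), 5 were higher and 15 lower at an unadjusted p under 0.05, and the Ang II values lay wholly above for 41 and below for 54. Over all genes tested the shares were 2.79% and 10.8% by unadjusted p and 24.4% and 33.5% by position. The 163 genes as a pool lay near these shares, with a median log2 fold change of 0.015. The single lists differed. RNA processing genes lay above for 3 and below for 12 of 29 (median -0.51). The counts were 6 and 1 of 13 regulators (median 1.609) and 3 and 1 of 11 tRNA-charging enzymes (1.604). They were 4 and 5 of 18 transcription and maintenance genes (0.319) and 2 and 4 of 14 translation factors (-0.416). Polrmt, the mitochondrial RNA polymerase, was listed at 0.01 and 0.02 FPKM in the IL-33 pair, against 0 and 10.95 FPKM in the Ang II pair. Tfam, which packs mitochondrial DNA and opens its promoters, had 16.2 and 16.7 FPKM in the IL-33 pair, against 0.03 and 23.1 FPKM in the Ang II pair. Tfb2m, the initiation factor, had 3.46 and 3.62 FPKM in the IL-33 pair, against 0.03 and 0 FPKM in the Ang II pair (log2 fold change -2.16, SE 0.18, limma adjusted p = 0.174). Tefm, the elongation factor, was listed at 0 in 3 libraries and at 67.6 FPKM in Ang II replicate 1. So 3 of these 4 were at or near 0 in one Ang II library and well above it in the other.

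The tRNA-cutting enzymes Elac2 (3′ end) and Trmt10c with Hsd17b10 (5′ end) were uneven: Elac2 stood at 43.1 FPKM in Ang II replicate 1 and at most 0.14 FPKM elsewhere, and Trmt10c at 29.55 FPKM in Ang II replicate 2 and at most 0.11 FPKM elsewhere. Hsd17b10 was even, at 65.4 and 62.9 FPKM with IL-33 and 82.4 and 72.9 FPKM with Ang II. Pnpt1, which degrades mitochondrial RNA, reached 25.5 FPKM in Ang II replicate 2 and at most 0.02 FPKM elsewhere. Its partner Supv3l1, and Grsf1, which binds mitochondrial RNA, were listed at 0 in all 4 libraries. Slirp, which shields mitochondrial mRNAs, stood at 17.0 and 17.2 FPKM against 16.3 and 20.65 FPKM, while its partner Lrpprc was listed at no more than 0.01 FPKM. Mtpap, the poly(A) polymerase of the mitochondrion, stood at 11.24 and 11.18 FPKM against 17.7 and 5.5 FPKM. Tbrg4 stood at 13.3 and 14.4 FPKM against 18.7 and 0.02 FPKM, and Fastkd5 at no more than 0.05 FPKM. Rexo2, which removes short RNAs and is among the most abundant of this list, stood at 58.2 and 61.15 FPKM against 40.4 and 48.65 FPKM. Of the 29 RNA processing genes tested, 13 had a 0 in just 1 of the Ang II libraries, a larger share than the 21.2% of all 9215 genes tested. This was not particular to that list. The count was 5 of 11 tRNA-charging enzymes, 6 of 18 transcription and maintenance genes, 4 of 13 regulators and 4 of 14 translation factors. It was 10 of 79 mitochondrial ribosomal protein genes.

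Of 79 mitochondrial ribosomal protein genes, all tested, 23 lay higher in both Ang II libraries and 32 lower, against 24.4% and 33.5% of all genes (median log2 fold change -0.28). The most abundant, Mrps21 and Mrpl54, stood at 184 and 179.8 FPKM against 359 and 144 FPKM, and at 106 and 102 FPKM against 205 and 83.7 FPKM. Among transcription and maintenance genes, Mrpl12, which also binds the polymerase, stood at 113 and 119 FPKM against 0 and 43.0 FPKM, and Endog at 49.2 and 52.45 FPKM against 95.6 and 21.8 FPKM. Coa3 and Cox14, which help the making of mt-Co1, stood at 64.6 and 54.8 FPKM against 38.9 and 238 FPKM, and at 65.2 and 61.75 FPKM against 38.5 and 76.2 FPKM. Gars and Kars, whose products charge tRNAs in the cytosol and the mitochondrion, overlapped between groups, at 27.8 and 29.4 against 71.0 and 16.5 FPKM for Gars and at 21.5 and 22.1 against 27.9 and 5.63 FPKM for Kars. Among 13 tested regulators of mitochondrial gene programmes, 6 lay higher in both Ang II libraries and 1 lower, against the same 24.4% and 33.5%. The 2 most abundant were Myc, at 0.07 and 0 FPKM against 22.8 and 34.5 FPKM, and Gabpa, at 0.05 and 0.03 FPKM against 17.7 and 27.7 FPKM (limma adjusted p = 0.228 and 0.272).

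For the nuclear subunits of the respiratory chain, the median gap between the Ang II libraries was 0.448 to 0.967 in log2 by complex, against 0.99 to 3.208 in the 6 lists above. Of 80 genes listed, 79 were found and tested, and the Ang II values lay wholly above for 26 and below for 25, against 24.4% and 33.5% of all genes. None passed the adjusted threshold (limma), 2 were higher and 0 lower at an unadjusted p under 0.05, against 2.79% and 10.8% of all genes, and the median log2 fold change was -0.007. The median Ang II gap of the mt- protein genes, 0.542, lay within the range of the complexes. The 2 most abundant genes of each complex are given. In complex I, Ndufa1 stood at 484 and 437 FPKM against 525 and 733 FPKM, and Ndufa2 at 491 and 497 FPKM against 364 and 297 FPKM. For complex IV, Cox6a1 stood at 953 and 939.8 FPKM against 793 and 808 FPKM, and Cox6b1 at 539 and 533 FPKM against 664 and 515 FPKM. For complex II, which has no mitochondrially encoded subunit, Sdhb stood at 269 and 293 FPKM against 89.7 and 116 FPKM, and Sdhd at 145 and 145.2 FPKM against 202 and 181 FPKM. For complexes III and V these genes overlapped between groups: Uqcr10 stood at 465 and 439 against 377 and 481 FPKM, Uqcrb at 305 and 277 against 336 and 241 FPKM, Atp5b at 189.9 and 189.9 against 203 and 187 FPKM, and Atp5c1 at 198 and 194 against 198 and 162 FPKM.

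**Figure D5:**
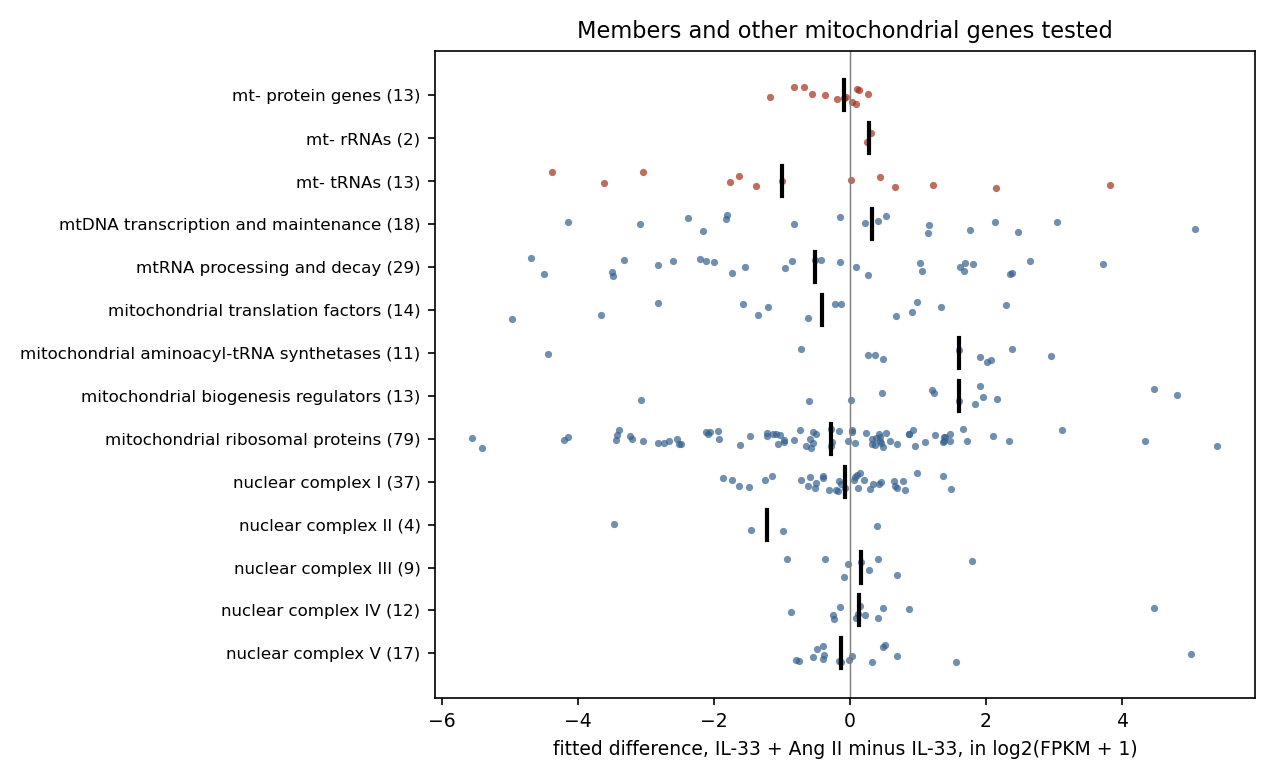
Fitted difference in log2(FPKM + 1), IL-33 plus Ang II minus IL-33, for each tested gene (points) of the member classes (red) and of the nuclear lists (blue), with the median of each as a bar. The 13 protein genes stay between -1.18 and 0.27, and the tRNAs run from -4.375 to 3.83.

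The label of the cells was checked against markers. Of 10 ILC2 genes, 9 were above 1 FPKM in every library, while Thy1 was listed at no more than 0.09 FPKM. The sum of the 10 ran from 1729.9 to 1805 FPKM. Of these genes, 3 (Gata3, Il2ra and Ptprc) were higher in both Ang II libraries, 0 were lower, and the others overlapped. Over all genes tested, 24.4% were higher and 33.5% lower in both, the shares to set beside this count and those below. Markers of other cells were present. The 5 red blood cell markers were all lower in both Ang II libraries, with sums of 25146 and 24943 FPKM with IL-33 and 3831 and 1591 FPKM with Ang II. Of 5 T cell markers, 4 were lower in both Ang II libraries (sums of 111 and 114 FPKM against 36.6 and 6.6 FPKM), with Cd4 listed at 0 in both and Cd8a at no more than 0.06 FPKM in any library. The 5 alveolar macrophage markers summed to 1966 and 1932 FPKM against 1904 and 898 FPKM, with Siglecf at no more than 0.03 FPKM. These 5 did not go one way. Marco had 0 FPKM throughout the IL-33 pair and 191 and 23.2 FPKM with Ang II, Chil3 overlapped (212 and 209.7 FPKM against 696 and 158 FPKM), and Lyz2 (1699.6 and 1668 FPKM against 1016 and 683 FPKM) and Ear2 (54.5 and 54.4 FPKM against 0.16 and 33.9 FPKM) were lower in both. The 4 epithelial markers summed to 354 and 344.5 FPKM against 80.1 and 189 FPKM, with Krt8 at 0 in all. With libraries rescaled to the FPKM without haemoglobin genes, the log2 fold change was 0.312 for mt-Rnr1, -0.68 for mt-Nd2 and 3.82 for mt-Td. The part of the other cell types in the values of the members was not tested, and in such bulk samples fewer cells of a type and less RNA per cell cannot be told apart.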

How the data were processed

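RNA-seq values are FPKM per gene, deposited by the authors with 2 decimals in 4 columns, per the file headers, both Ang II columns from one table. Columns were matched to samples by name. The submitters' processing notes name mm10, HISAT, StringTie and edgeR without roles; neither versions nor annotation are stated there. cDNA was made from few cells and amplified, per the labels' protocols, and no molecular identifiers are named. FPKM are not counts, so no count model was used, and the depth is unknown. GENCODE M21 held 55141 of the 55401 gene identifiers and gave positions and longest transcript lengths. Nuclear copies are gene models off the mitochondrial genome whose transcript matched a member over at least 100 bases at 95% identity or more (blastn 2.17.0). Counting noise was taken from how often low genes were at 0 in just one of the IL-33 pair; a median-based ratio replaced a mean-based one after both were seen. The planned rule averaged the IL-33 pair only if within noise; it was averaged although both ratios lay above 1, the mean-based one at 2.08 to 2.32. Gene models averaging 1 FPKM or more over the 3 resulting columns were tested on log2(FPKM + 1) with limma 3.58.1 in R 4.3.3 (trend, two-sided, Benjamini-Hochberg, threshold 0.05); fold changes on this scale understate those of low genes. p-values measure only the spread between these libraries, which may be technical. The fit was run on simulated data with known fold changes. The only outcome required was that it returned those fold changes at a spread far below that of the Ang II pair. This does not show that it could call genes in these data. All protein genes and rRNAs, tRNAs reaching 1 FPKM, copies reaching 1 FPKM, a fixed set of RNA factors and the 2 most abundant genes of each list are named; other genes were named as markers. Members and lists were chosen with earlier results of these data known.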

Additional observations from a re-analysis of the deposited data

How the results depend on the processing

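The 16 members whose groups did not overlap and which were tested kept the direction of their log2 fold change in all 271 values from 17 other settings (pseudocounts of 0.1 and 5, a minimum mean of 5 FPKM or none, 5 rescalings, limma without trend, both IL-33 libraries as replicates with and without a block, each library left out, copies counted with members). These members were picked because their groups did not overlap, so most of the settings could not turn the sign. Only the rescalings and the counting of copies could have done so, and the kept directions are otherwise no check. Counting copies with members in the fits was chosen after seeing the data. Only one setting made calls: with both IL-33 libraries as replicates and no replicate block, limma called 1665 genes in all (486 higher and 1179 lower), 8 members (mt-Nd2, mt-Td, mt-Tf, mt-Tg, mt-Tl1, mt-Tm, mt-Tp and mt-Tr) and 29 genes of the nuclear lists. With the replicate number as a block it called 0 genes. The labels do not say whether same-numbered libraries belong together. Their deviations correlated at -0.018, which cannot settle it, because the IL-33 pair lay near counting noise for the median gene. That noise was estimated from the same pair. The median log2 fold change of the protein genes moved with the library left out, from -0.335 without Ang II replicate 2 to 0.024 without Ang II replicate 1, and was 0.016 with median-of-ratios scaling; the cause was not tested. Left out one at a time, Ang II libraries leave 1 against 1 and no test. Quantile normalisation moved the median of all genes from -0.004 to 0.173. The member share was 0.276 percentage points higher with Ang II, from -0.553 without Ang II replicate 2 to 1.104 without Ang II replicate 1, and -0.003 without haemoglobin genes in the sum. Read strictly, the planned rule makes the fit with both IL-33 libraries the main one, since their spread exceeded counting noise. The files give no depth, so no interval was set on low values.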
